A study of Mus musculus with 6 samples.

Results

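The SLC25 carriers are the transporters that move nucleotides, phosphate, carboxylates, amino acids, acylcarnitines, metals and cofactors across the inner mitochondrial membrane, and they were examined here in cardiomyocytes of mice with a gene trap in Uty. Members were all protein-coding genes of the deposited table whose symbol is Slc25a followed by a number. There were 47 of them among 21838 protein-coding genes and 54109 named genes, and 39 had enough reads to be tested. RNA came from adult male mice that carried, on a C57BL/6J background, either the UtyGt(XS0378)Wtsi allele (UtyGT) on a Y chromosome from 129P2/OlaHsd, or the intact 129P2/OlaHsd Y chromosome (wild type, WT). The trap is an insertion in an intron of Uty, present in the whole animal and derived from 1 line of embryonic stem cells, so that the other cell types of the heart carry it too. Cells were released from the heart by collagenase perfusion, sedimented, plated on laminin and lysed after 4 h. Each strain had 3 samples, named here by the letters of their labels (e, f and g for WT, d, e and f for UtyGT). Nothing in the labels ties them to separate animals, so that p-values measure the spread between these samples.

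Carriers of this family are encoded in the nucleus, made in the cytosol and inserted in the inner membrane by a dedicated translocase. In heart muscle the most abundant of them sustain oxidative phosphorylation: the adenine nucleotide translocases export ATP against ADP, the phosphate carrier brings in the phosphate for ATP synthase, and the aspartate-glutamate and oxoglutarate carriers form the membrane part of the malate-aspartate shuttle. Others supply substrates (the carnitine-acylcarnitine carrier for fatty acid oxidation), iron for haem and iron-sulphur clusters, glutathione, coenzyme A, NAD, folate or pyrimidine nucleotides. The substrates of several members are not known.

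Values are reads per gene divided by a size factor of the library (normalized counts). Libraries held from 28283654 to 48377453 reads, of which RNAs of the mitochondrial genome took from 46.9 to 54.7% in WT and from 39.8 to 44.8% in UtyGT. Uty was at 1.09% of its WT level and its neighbour Ddx3y at 13.1%, so that all libraries matched their labels. The 12 cardiomyocyte markers summed to between 2447720 and 2534690 normalized counts in WT. In UtyGT d, e and f they summed to 2625460, 2688560 and 2555490, above all WT libraries. Markers of other cells also differed between libraries. The 10 endothelial markers summed to between 16027 and 18184 in WT and to 25309, 16635 and 26774 in UtyGT d, e and f, and the 10 fibroblast markers to between 5622 and 8465 in WT and to 10540, 7580 and 10790 in UtyGT. The 6 atrial markers summed to between 914 and 1118 in WT and to 1148, 10039 and 6201 in UtyGT. Endothelial and fibroblast RNA was thus highest in UtyGT d and f, and the atrial sum in UtyGT e and f. Of the 6 atrial markers, 5 had a log2 fold change above 0. Bmp10 went the other way, at 119, 69.9 and 91.7 in WT e, f and g and 0, 0 and 2.29 in UtyGT d, e and f. UtyGT f also had reads on 28619 genes, against 21615 to 22917 in the other libraries.

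In WT cardiomyocytes the carriers spanned a wide range of levels. Levels were compared per kb of exon, counting every annotated exon base of a gene. This lessens the effect of gene length, but exons of transcripts not made in these cells count too. The length was 2353 bases for Slc25a4 and 5550 for Slc25a3, and places in the order depend on it. Slc25a4 (ANT1, the adenine nucleotide translocase of heart and skeletal muscle) stood first at 21531 ± 1653 normalized counts per kb (SD, n = 3). It was followed by Slc25a3 (the phosphate carrier) at 5860 ± 224, Slc25a11 (the oxoglutarate-malate carrier) at 3546 ± 129 and Slc25a5 (ANT2, the translocase of proliferating and non-muscle cells) at 2416 ± 139. Slc25a13 and Slc25a12 (citrin and aralar, the aspartate-glutamate carriers), Slc25a39 (needed for glutathione import) and Slc25a34 (an orphan) came next. These were close together, between 1109 and 1186, and their WT ranges overlapped from each to the next in the order. Of the 39 tested carriers, 8 were above 1000 normalized counts per kb, 12 between 100 and 1000, 16 between 10 and 100 and 3 at or under 10. Along this order, 19 of the 38 pairs of neighbours had overlapping WT values and 19 did not. By these ranges the first 4 places were separate, whereas many of the middle places were not. Of the 50-base windows of exon of Slc25a5, 33.8% are also found in other genes, so that its level and place are uncertain.

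**Figure D1:**
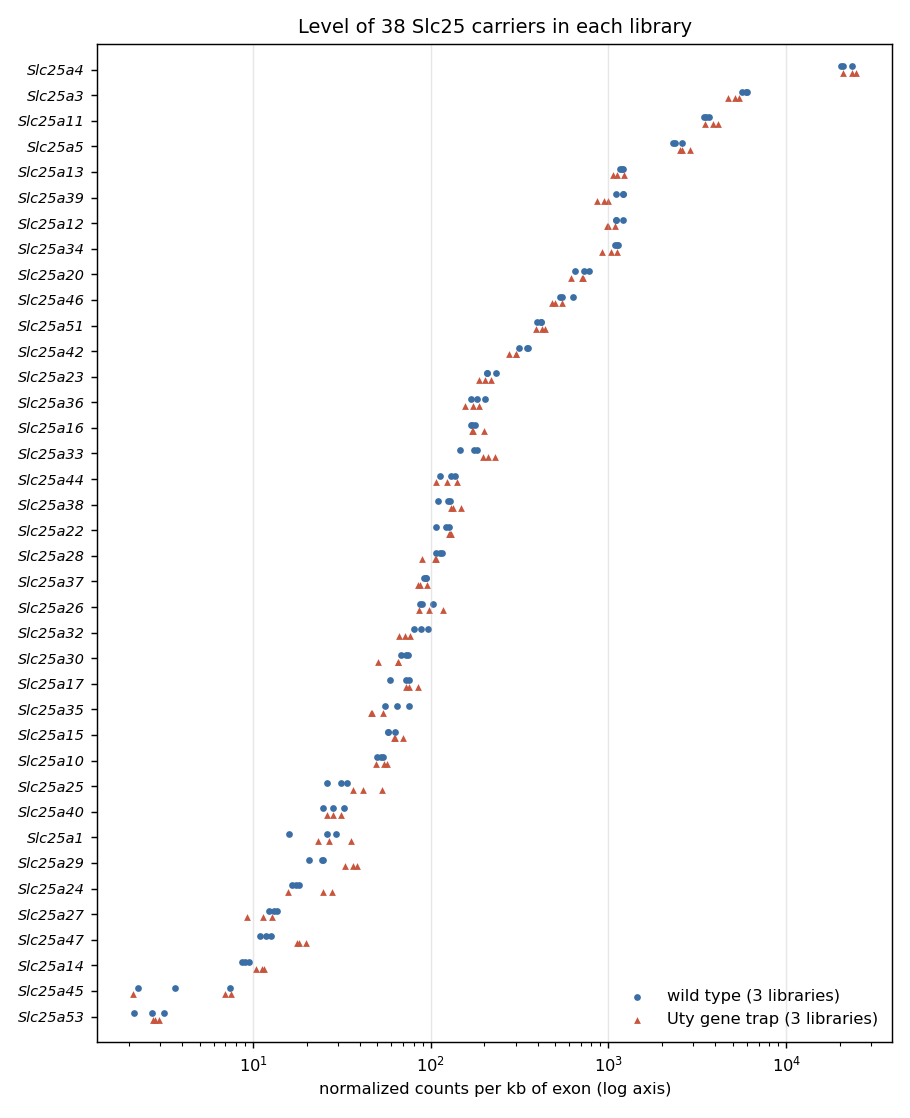
Normalized counts per kb of exon (log axis) of 38 of the tested carriers in each of 3 WT (circles) and 3 UtyGT (triangles) libraries, ordered by the WT mean. Levels run from 21531 for Slc25a4 to 2.67 for Slc25a53 in WT, and both strains follow nearly the same order.

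The whole family took a similar share of reads in both strains, a comparison that was not tested. Its reads made up 0.711, 0.690 and 0.741% of the protein-coding reads from the nucleus in WT e, f and g, and 0.724, 0.742 and 0.685% in UtyGT d, e and f, so that the groups overlapped. Its composition was a little different. Slc25a4 made up 36.1, 37.3 and 39.5% of the family's normalized counts in WT and 41.3, 41.3 and 40.4% in UtyGT. Slc25a3 made up 24.8, 24.2 and 23.6% in WT and 21.4, 21.3 and 21.4% in UtyGT. Neither pair of groups overlapped; both shares were chosen after their values were seen and were not tested.

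Of the 39 tested carriers, 2 rose in UtyGT cells, 1 fell and 36 did not pass the test (limma, adjusted p under 0.05 over all 13867 genes tested). Slc25a29 and Slc25a25 rose and Slc25a39 fell. Among all genes tested, 4.56% rose and 6.12% fell, so that the share of carriers called, 7.69%, was no higher than that of the transcriptome, 10.7%. At an unadjusted p under 0.05, 11 carriers (28.2%) stood beside 28.2% of all genes. The median log2 fold change was 0.04 over the tested carriers and 0.00 over all tested genes, and the median size of change was 0.15 and 0.18. The values of UtyGT lay wholly above those of WT for 7 carriers and wholly below for 7, against 14.2% and 17.7% of all genes in the same directions. The 95% interval of the log2 fold change stayed within 0.5 of no change for 26 of the 39 carriers. For the others, among them Slc25a1, Slc25a45 and Slc25a53, changes of that size were not excluded by these libraries. RNA from bulk samples cannot tell fewer cells of a type from less RNA per cell.

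**Figure D2:**
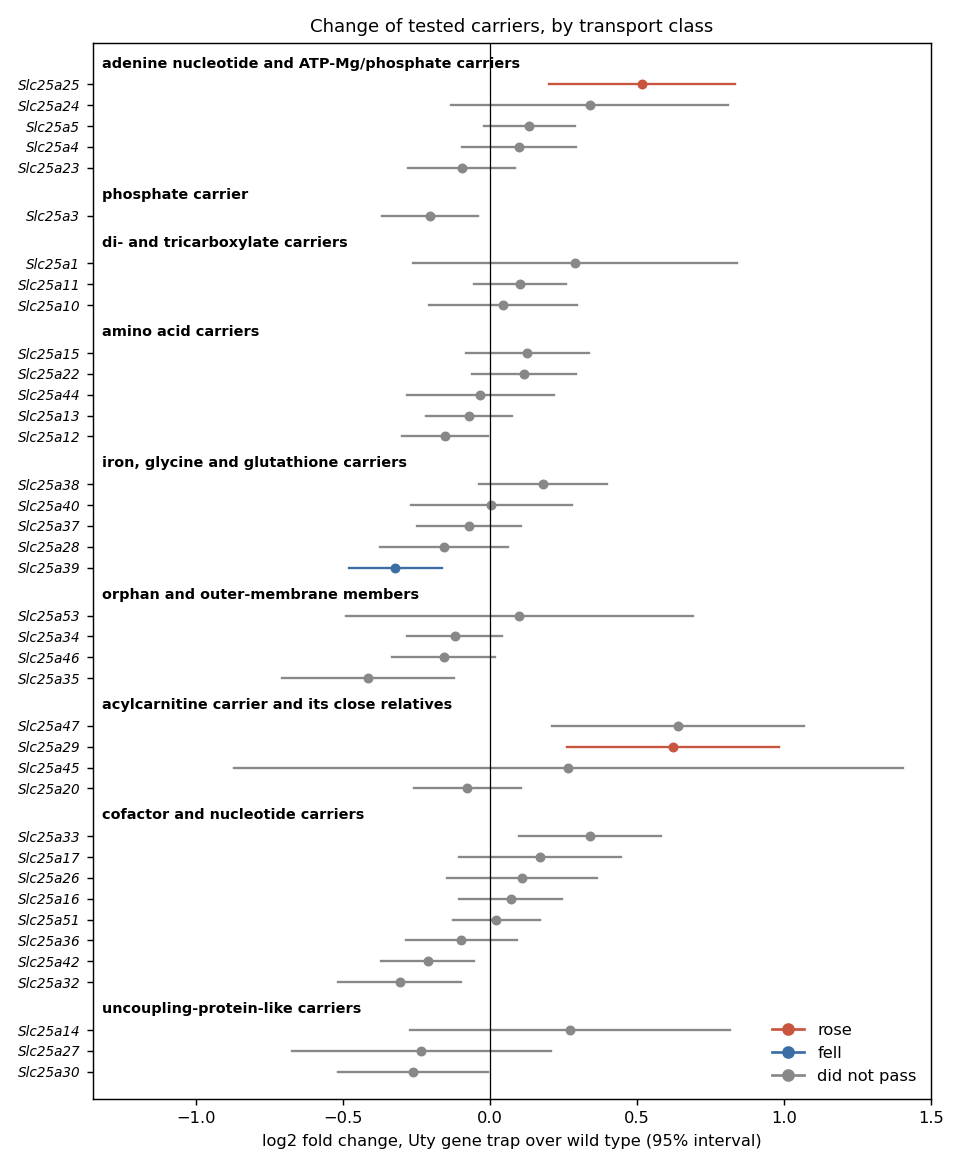
Log2 fold change of UtyGT over WT for 38 of the tested carriers by transport class, with the limma estimate (point) and its 95% interval (line). Slc25a29 at 0.62 and Slc25a25 at 0.52 rose, Slc25a39 at -0.32 fell, and most intervals of the abundant carriers are narrow and cross or touch 0.

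The adenine nucleotide translocases did not pass the test. Slc25a4 had 48862, 48001 and 55126 normalized counts in WT e, f and g and 55085, 58344 and 49368 in UtyGT d, e and f. The groups overlapped, with WT g close to UtyGT d and UtyGT f close to WT e. Its log2 fold change was 0.10 ± 0.09 (SE), with a 95% interval from -0.10 to 0.29 and an adjusted p of 0.506 in limma. Slc25a5 had 3878, 3815 and 4239 in WT and 4246, 4704 and 4139 in UtyGT, again overlapping, with a log2 fold change of 0.13 ± 0.07 and an adjusted p of 0.244. Of its 50-base windows of exon, 33.8% are also found in other genes, mainly processed pseudogenes, so that the number of reads assigned to Slc25a5 is uncertain. Slc25a4 shares none, and Slc25a20, Slc25a36, Slc25a37 and Slc25a40 share between 3.27 and 6.99%. The ratio of Slc25a4 to Slc25a5 was 12.6, 12.6 and 13.0 in WT and 13.0, 12.4 and 11.9 in UtyGT, and did not separate the strains (two-sided exact permutation test p = 0.4). Slc25a31 (ANT4, known from the testis) was nearly silent in both, at 9.14, 7.49 and 5.40 normalized counts in WT and 3.97, 5.86 and 2.29 in UtyGT, under the minimum for testing.

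The ATP-Mg/phosphate carriers exchange adenine nucleotides for phosphate under the control of calcium and so set the size of the nucleotide pool of the matrix. Slc25a25 had 206, 267 and 244 normalized counts in WT e, f and g and 327, 288 and 420 in UtyGT d, e and f, or 144% of the WT mean. The groups did not overlap, and the gap was smallest between WT f and UtyGT e. Its log2 fold change was 0.52 ± 0.15, with a 95% interval from 0.20 to 0.83 and an adjusted p of 0.0417 in limma. Of the related carriers, Slc25a23 had 1239, 1095 and 1091 in WT and 1064, 1157 and 983 in UtyGT (log2 fold change -0.10 ± 0.08, adjusted p = 0.484). Slc25a24 had 57.1, 62.5 and 60.1 in WT and 95.9, 53.9 and 84.9 in UtyGT (0.34 ± 0.22, adjusted p = 0.333). UtyGT d and f were thus above all WT libraries for Slc25a24 and UtyGT e below them, and these are also the libraries with the most and the least endothelial and fibroblast RNA of their group. Slc25a25 was likewise lowest in UtyGT e. The part of those cells in either result was not tested. Without UtyGT e, Slc25a24 passed the test at 0.58 (adjusted p = 0.0441) and Slc25a25 stood at 0.64 (0.00674). The rise of Slc25a25 was lost without any other single library (adjusted p from 0.0722 without WT f to 0.176 without WT e). It was also lost under all 3 other scalings (from 0.0529 to 0.0646) and with eBayes without a trend (0.147), and the log2 fold change fell to 0.26 (0.292) without both WT e and UtyGT f, a setting chosen after seeing the data. The ratio of Slc25a23 to Slc25a24 was 21.7, 17.5 and 18.1 in WT and 11.1, 21.5 and 11.6 in UtyGT (exact permutation p = 0.3). Slc25a41 and Slc25a54 had 3 and 2 reads in all libraries together, of which 2 each came from UtyGT f.

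Slc25a25 lies on chromosome 2 (32414487 to 32451445, minus strand, GRCm38) and has 3 start sites in RefSeq, which counts per gene cannot separate. Its exons share 379 bases with Naif1 on the opposite strand (log2 fold change 0.10 ± 0.15, adjusted p = 0.718). The 250 bases upstream and 50 bases downstream of the innermost start hold a complete cAMP response element, TGACGTCA, a palindrome bound by CREB and ATF factors. It is in 1.79% of the 32851 RefSeq promoter windows of this length and, among those of the carriers, in the windows of Slc25a25 and Slc25a36. The stretch is shown because Slc25a25 is the carrier of its class that rose, and its capitals mark the element. The element starts 150 bases upstream of the start site, inside the annotated span of the gene.
Slc25a25, chr2:32424169-32424256, minus strand: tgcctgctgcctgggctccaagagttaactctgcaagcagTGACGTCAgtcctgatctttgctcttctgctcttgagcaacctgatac
Slc25a36, which holds the same letters, had a log2 fold change of -0.10 ± 0.09 (adjusted p = 0.50). The match is a description of the sequence and does not show a site in use.

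Slc25a3 is the main carrier of phosphate for ATP synthesis and also brings copper to the matrix. It had 33524, 31133 and 32906 normalized counts in WT e, f and g and 28550, 30115 and 26113 in UtyGT d, e and f, or 86.9% of the WT mean. Every UtyGT library was under every WT library. The log2 fold change was -0.20 ± 0.08, with a 95% interval from -0.37 to -0.04, and the adjusted p was 0.10 in limma, so that it did not pass the test. It passed in DESeq2 (adjusted p = 0.0489) and without UtyGT e (-0.25, 0.0348), and did not pass in edgeR (0.0949). Within each library, the ratio of Slc25a3 to Slc25a4 does not depend on the scaling. It was 0.686, 0.649 and 0.597 in WT and 0.518, 0.516 and 0.529 in UtyGT, so that the strains did not overlap. This ratio was chosen after its values were seen and is given without a test.

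**Figure D3:**
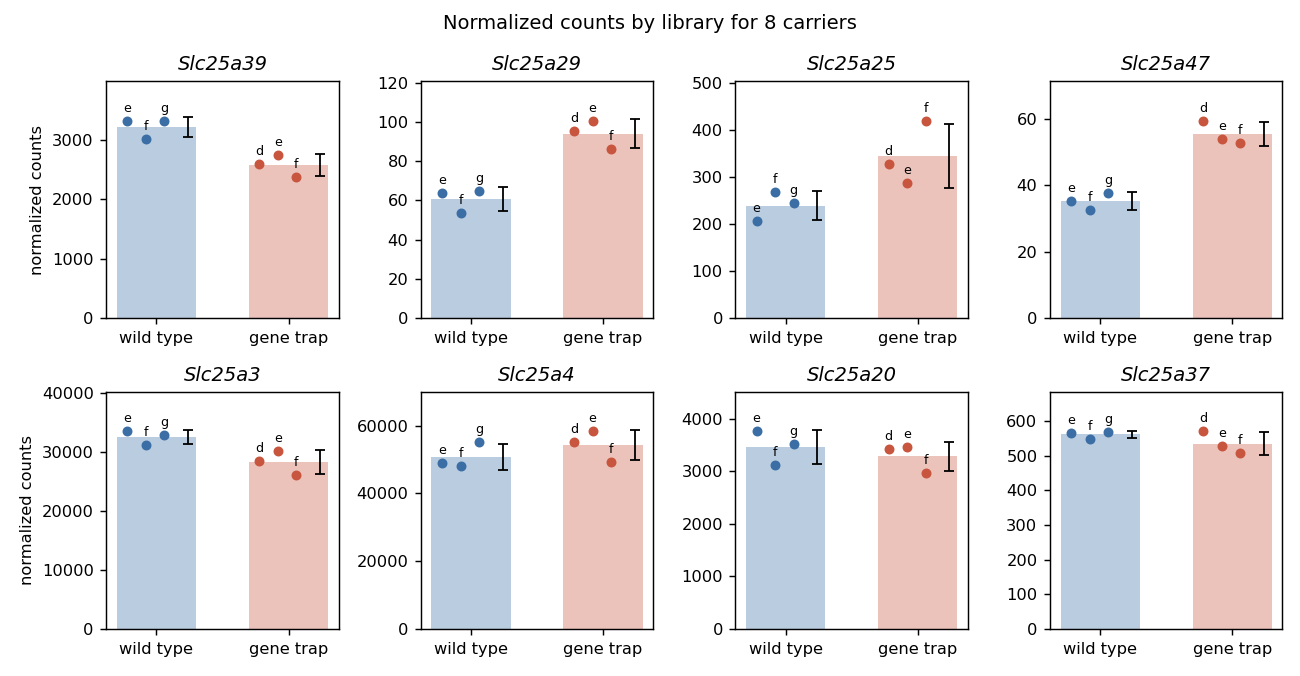
Normalized counts of 8 carriers in each library (points, with the letter of the sample), with the mean (bar) and SD (error bar) of 3 libraries per strain; axes start at 0. UtyGT points lie below all WT points for Slc25a39 and Slc25a3 and above them for Slc25a29, Slc25a25 and Slc25a47, and overlap with them for Slc25a4, Slc25a20 and Slc25a37.

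Among the acylcarnitine carrier and its close relatives, the main carrier did not pass the test whereas 1 relative did. Slc25a20, which exchanges acylcarnitines for free carnitine and is needed for the oxidation of long-chain fatty acids, had 3761, 3123 and 3515 normalized counts in WT e, f and g and 3419, 3470 and 2965 in UtyGT d, e and f. The groups overlapped, and the log2 fold change was -0.08 ± 0.08, with a 95% interval from -0.26 to 0.11 (adjusted p = 0.592). Slc25a29, a carrier of basic amino acids first described as a relative of the acylcarnitine carrier, had 64.0, 53.7 and 64.8 in WT and 95.3, 101 and 86.1 in UtyGT, or 155% of the WT mean. The groups were well apart, and the log2 fold change was 0.62 ± 0.17, with a 95% interval from 0.26 to 0.98 (adjusted p = 0.0345). Slc25a47, known mainly from the liver, had 35.4, 32.5 and 37.8 in WT and 59.5, 53.9 and 52.8 in UtyGT, or 157% of the WT mean. The groups did not overlap, but the log2 fold change of 0.64 ± 0.20 missed the threshold (adjusted p = 0.0567). With eBayes without a trend it passed (0.0462). Slc25a45 had between 6.25 and 20.6 normalized counts in WT and between 5.86 and 20.7 in UtyGT, and Slc25a48 had 4 reads in all. Slc25a29 rested on 488 reads over the 6 libraries and Slc25a47 on 288. The call of Slc25a29 was kept without UtyGT f (adjusted p = 0.0450) and lost without any other single library (from 0.0526 without UtyGT e to 0.133 without WT f). It was also lost in DESeq2 (0.0527), under quantile normalization (0.059) and with eBayes without a trend (0.0612), and its log2 fold change stayed between 0.54 and 0.68 in all of these.

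Slc25a29 and Slc25a47 are neighbours on chromosome 12 in opposite directions. Slc25a29 runs from 108825873 to 108835883 on the minus strand and Slc25a47 from 108836046 to 108856815 on the plus strand, so that their outermost annotated starts are separated by 162 bases. The transcripts of Slc25a47 that begin there are annotated without a protein product, and its RefSeq start lies at 108851129, or 15246 bases from the end of Slc25a29. Counts per gene do not tell which of these transcripts gave the reads. The ratio of Slc25a29 to Slc25a47 was 1.81, 1.65 and 1.71 in WT and 1.6, 1.87 and 1.63 in UtyGT, so that both differed between the strains by about the same factor (chosen after seeing the values, not tested). The genes on either side were Yy1, with a log2 fold change of 0.11 ± 0.07 (adjusted p = 0.359), and Wars, with 0.21 ± 0.08 (0.11). The bases between the outermost annotated starts are shown because these carriers are neighbours there. Whether both genes are transcribed from them was not tested. The capitals mark a GC box, GGGCGGG, the motif of SP1 and related factors, here on the other strand.
Slc25a29 to Slc25a47, chr12:108835884-108836045, minus strand: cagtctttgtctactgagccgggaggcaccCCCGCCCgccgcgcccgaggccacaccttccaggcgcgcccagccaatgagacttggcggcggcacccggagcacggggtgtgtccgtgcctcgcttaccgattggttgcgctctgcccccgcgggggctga
GC boxes are common. On either strand, GGGCGGG is in 25.6% of all promoter windows and in 27 of the 46 windows of the carriers (58.7%), including those of Slc25a3, Slc25a25, Slc25a29 and Slc25a39. The E-box CACGTG is in 7.15% of all windows and 8 of those of the carriers, the nuclear receptor half-site AAGGTCA in 4.72% and 1, and the NRF1 core GCATGCGC in 2.71% and 2. The 46 windows belong to 36 of the 47 carriers, as listed by RefSeq on GRCm38.p6, and several genes have more than 1.

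The carriers of iron, glycine and glutathione supply haem and iron-sulphur cluster assembly and protect it. Slc25a39, which is needed for the import of glutathione, had 3313, 3020 and 3325 normalized counts in WT e, f and g and 2600, 2752 and 2381 in UtyGT d, e and f, or 80.1% of the WT mean. All UtyGT libraries were below all WT libraries. Its log2 fold change of -0.32 ± 0.07 had a 95% interval from -0.48 to -0.16 and an adjusted p of 0.0181, which placed it 612th of 13867 genes by p. It was the carrier with the smallest p, and the abundant member of its group. The fall passed without WT f, UtyGT e or UtyGT f and missed the threshold without WT e (adjusted p = 0.0902), WT g (0.0577) or UtyGT d (0.0552), with log2 fold changes between -0.37 and -0.27. It also missed the threshold with eBayes without a trend (0.115), and without both WT e and UtyGT f it stood at -0.24 (0.133). Slc25a40, its paralogue, had 271, 237 and 207 in WT and 218, 235 and 263 in UtyGT, with no difference in mean (0.00 ± 0.13, 95% interval from -0.27 to 0.28). The ratio of Slc25a39 to Slc25a40 was 12.2, 12.7 and 16.0 in WT and 11.9, 11.7 and 9.06 in UtyGT. These values did not overlap, and the exact permutation p of 0.1 is the smallest that 3 against 3 libraries can give (adjusted over the 6 pairs, 0.36, with the other pairs between 0.36 and 0.4).

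The mitoferrins, which carry iron into the matrix, did not pass the test. Slc25a37 (mitoferrin 1, best known from red cell precursors) had 567, 550 and 570 normalized counts in WT e, f and g and 571, 527 and 508 in UtyGT d, e and f (log2 fold change -0.07 ± 0.08, adjusted p = 0.612). Slc25a28 (mitoferrin 2, the widely expressed form) had 423, 401 and 436 in WT and 398, 402 and 333 in UtyGT (-0.16 ± 0.10, adjusted p = 0.332). Both pairs of groups overlapped, with the lowest value in UtyGT f. Their ratio was 1.34, 1.37 and 1.31 in WT and 1.43, 1.31 and 1.53 in UtyGT (exact permutation p = 0.3). Slc25a38, the glycine carrier that feeds the first step of haem synthesis, had 351, 302 and 345 in WT and 357, 405 and 368 in UtyGT. Its UtyGT values all lay above those of WT, by a small margin, and it did not pass (0.18 ± 0.10, adjusted p = 0.266). Red cell RNA was scarce, as 7 listed erythroid genes summed to between 60.9 and 97.9 normalized counts per library.

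The orphan members and the outer-membrane member had no call among the 4 tested in limma, edgeR or DESeq2, with 1 at an unadjusted p under 0.05. Over all tested genes, 28.2% had such a p. Slc25a34 was one of the most abundant carriers, with 3002, 2963 and 2919 normalized counts in WT e, f and g and 2753, 2982 and 2464 in UtyGT d, e and f. The WT libraries were within a few percent of each other. UtyGT d and f lay below them and UtyGT e among them (log2 fold change -0.12 ± 0.07, adjusted p = 0.318). Slc25a46, which sits in the outer membrane and takes part in mitochondrial fusion and fission, had 3418, 2962 and 2878 in WT and 2717, 2973 and 2599 in UtyGT (-0.16 ± 0.08, adjusted p = 0.220). Slc25a35 had 239, 279 and 204 in WT and 171, 169 and 197 in UtyGT, or 74.5% of the WT mean, with no overlap (-0.42 ± 0.13, adjusted p = 0.0671). It passed without WT g (-0.53, 0.0471). Its exons share 1151 bases with Rangrf on the opposite strand (0.35 ± 0.12, adjusted p = 0.0865), and whether reads were counted by strand is not stated in the sources used here. Slc25a53 had between 17.1 and 25.0 normalized counts in any library. Slc25a43 had 1 read in WT g and 1 in UtyGT d.

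The carriers of the malate-aspartate shuttle and of other amino acids had no call among 5 tested in limma, edgeR or DESeq2. Slc25a29, a carrier of basic amino acids that rose, was grouped with the acylcarnitine carrier and is not among these 5. Slc25a12 had 8840, 8101 and 8104 normalized counts in WT e, f and g and 7343, 7969 and 7219 in UtyGT d, e and f, or 90.0% of the WT mean. The groups did not overlap, and it was the one of the 5 with an unadjusted p under 0.05 (-0.15 ± 0.07, adjusted p = 0.158). Over all tested genes, 28.2% had such a p. Slc25a13 had 4535, 4574 and 4405 in WT and 4230, 4628 and 4026 in UtyGT (-0.07 ± 0.07, adjusted p = 0.525). Their ratio went from 1.85 ± 0.09 (SD, n = 3) in WT to 1.75 ± 0.04 in UtyGT (exact permutation p = 0.2). Slc25a22 (glutamate), Slc25a15 (ornithine) and Slc25a44 (branched-chain amino acids) were between -0.03 and 0.13. Slc25a18 and Slc25a2 were under 10 normalized counts in each library. Slc25a11, the oxoglutarate carrier of the same shuttle, stood at 0.10 ± 0.07 (adjusted p = 0.385), Slc25a10 (dicarboxylate) at 0.04 and Slc25a1 (citrate) at 0.29, the latter with an interval from -0.26 to 0.84.

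Among 9 carriers of cofactors and nucleotides none was called by limma, edgeR or DESeq2, and 3 had an unadjusted p under 0.05. Over all tested genes, 28.2% had such a p. Slc25a33, a pyrimidine nucleotide carrier, had 274, 331 and 345 normalized counts in WT e, f and g and 369, 433 and 398 in UtyGT d, e and f (0.34 ± 0.11, adjusted p = 0.0690). Its paralogue Slc25a36 had 1942, 1739 and 1617 in WT and 1788, 1669 and 1494 in UtyGT. The ratio of Slc25a33 to Slc25a36 was 0.141, 0.190 and 0.213 in WT and 0.206, 0.260 and 0.267 in UtyGT, with WT g above UtyGT d (exact permutation p = 0.2). Slc25a32 (folate and FAD) had 538, 586 and 488 in WT and 435, 464 and 402 in UtyGT (-0.31 ± 0.10, adjusted p = 0.0611), and passed without UtyGT e (-0.36, 0.0266). Slc25a42 (coenzyme A) had 2081, 1886 and 2125 in WT and 1643, 1803 and 1812 in UtyGT (-0.21 ± 0.07, adjusted p = 0.0802). For these 3 genes the strains did not overlap, and UtyGT was higher for the first and lower for the others. Slc25a51 (NAD), Slc25a16, Slc25a26 (S-adenosylmethionine) and Slc25a17 (of peroxisomes) were between 0.02 and 0.17 and overlapped. Of the uncoupling-protein-like carriers, Slc25a30 was at -0.26 (adjusted p = 0.168), Slc25a27 at -0.23 and Slc25a14 at 0.27, with no call among the 3.

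**Figure D4:**
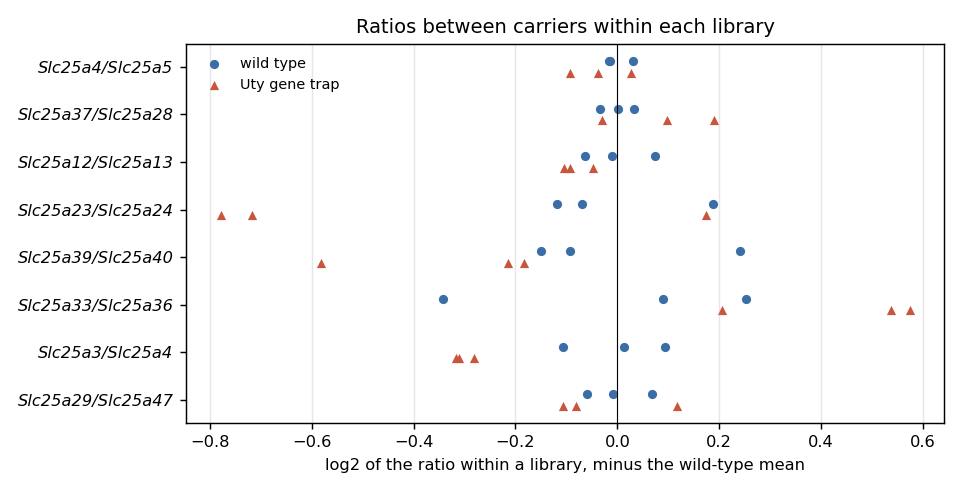
Log2 ratio between carriers within each library, minus the WT mean, for 3 WT (circles) and 3 UtyGT (triangles) libraries. Only the ratios of Slc25a39 to Slc25a40 and of Slc25a3 to Slc25a4 have all UtyGT points on one side of all WT points, and the latter was picked after its values were seen.

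Several carriers lay under the minimum of 10 normalized counts on average. These were Slc25a2, Slc25a18, Slc25a21, Slc25a31, Slc25a41, Slc25a43, Slc25a48 and Slc25a54, with from 2 reads (Slc25a43 and Slc25a54) to 49 reads (Slc25a18) over all 6 libraries. All 47 carriers had at least 1 read. Slc25a2, Slc25a18 and Slc25a31 had reads in every library. The other 5 had 0 reads in at least 1 library of each strain, and a library with 0 reads of a gene allows up to 3.

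Among all tested genes, 4.56% rose, 6.12% fell and 28.2% had an unadjusted p under 0.05 in limma. Family members that bear other symbols, and partners of the carriers, gave a few calls. Of 4 tested, Ucp2, a relative of the uncoupling protein of brown fat that is known to export malate and aspartate, rose from 573, 577 and 568 normalized counts in WT e, f and g to 953, 879 and 884 in UtyGT d, e and f (0.66 ± 0.07, adjusted p = 0.000413), while Ucp3, Mtch1 and Mtch2 did not pass. Of the calcium uniporter, 1 of 5 rose, the regulatory subunit Smdt1 (0.50 ± 0.10, 0.0130). Of the machinery that imports carriers, 2 of 15 rose, the outer-membrane receptor Tomm20 (0.33 ± 0.09, 0.0422) and the small subunit Tomm7 (0.44 ± 0.12, 0.0442). None of the 6 carnitine shuttle genes (1 at an unadjusted p under 0.05, 0 called by edgeR and 1 by DESeq2), 4 malate-aspartate enzymes (1, 0 and 0), 2 pyruvate carrier subunits (0, 0 and 0) and 12 genes of haem and iron-sulphur assembly (2, 1 and 1) was called by limma. No gene of these lists fell.

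In the marker lists, 1 of 12 cardiomyocyte genes rose, along with 4 of 10 endothelial, 4 of 10 fibroblast, 4 of 8 smooth muscle and pericyte and 2 of 8 macrophage genes, and none fell. Over all tested genes, 4.56% rose and 6.12% fell. Of 6 atrial genes, 4 rose and Bmp10 fell. Neither the 2 tested erythroid genes nor the 1 tested adipocyte gene was called by limma, edgeR or DESeq2, and none had an unadjusted p under 0.05. Beside the carriers, the summed marker levels set apart UtyGT d and f (endothelium and fibroblasts) and UtyGT e and f (atrium). For Slc25a39 and Slc25a3, UtyGT e was the closest of its group to WT, as it was for the endothelial and fibroblast sums, and for Slc25a29 it was the farthest from WT. The part of other cell types in these differences was not tested.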

How the data were processed

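Cardiomyocyte RNA from 3 WT and 3 UtyGT samples was treated with DNase, depleted of ribosomal RNA and read as stranded single-end libraries. According to the submitters' processing notes and methods, the authors' tools were CASAVA 1.4 for base calls, STAR 2.5.1b for alignment (GRCm38), featureCounts 1.6.0 for counting per Ensembl gene and DESeq2 1.22.2. How strand and reads with several matches were treated was not stated in the sources used here. The deposited signal holds gene-level read numbers scaled by the authors with 1 size factor per library. In all libraries 100% of the values were whole multiples of the value of 1 read (tolerance 0.001), so whole reads were recovered. The deposited table also holds the authors' own comparison (mean, log2 fold change, its error, a test score and p-values), which was not used here.

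UtyGT was compared with WT by limma 3.58.1 with a variance trend (R 4.3.3, two-sided), applied to log2(normalized count + 1). This scale slightly understates changes of low genes. Genes with a mean of at least 10 were tested (13867) and p-values adjusted by Benjamini and Hochberg. "Rose" and "fell" mean an adjusted p under 0.05, and SE and 95% intervals are those of limma. Ratios of 6 pairs of paralogues were compared by exact permutation. The steps were tested on simulated data. Reads of the median tested gene ranged from 222 to 433 per library. Differences between libraries of a strain exceeded sampling noise, with a chi-square of at least 9.89 for each degree of freedom, so each library was counted once. The 123 rows without a gene name, at most 0.00378% of reads, were left out. Exon length, neighbours and 50-base windows shared with other genes came from GENCODE M21, promoter sequences from RefSeq (GRCm38.p6). Alternatives were count tests on the recovered reads (edgeR 4.0.16, DESeq2 1.42.0), a pseudocount of 0.5 or 8, a filter at 1 or 50 or none, 3 other scalings, eBayes without a trend, a replicate block, and leaving out libraries. Counts cover all members, but some listed genes are not reported here by name. Members and gene lists were chosen with earlier results of these data known. Full values are given for carriers past the threshold, a fixed set of nucleotide, phosphate, acylcarnitine, iron and orphan carriers, and the paralogue pairs; Slc25a47, Slc25a32 and Slc25a42 were added after their values were seen.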

Additional observations from a re-analysis of the deposited data

How the results depend on the processing

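The number of carriers called was 3 in limma as reported and 2 or 3 under edgeR, DESeq2, other pseudocounts, filters at 1 and 50 and the other scalings. It was 6 with no filter and 1 with eBayes without a trend. There the count over all genes went from 1481 to 146, Slc25a25, Slc25a29 and Slc25a39 were lost and Slc25a47 was gained. Leaving out 1 library gave between 0 and 5 carriers (Slc25a39 in 3 of these 6 settings) and between 408 and 2230 genes. Without both WT e and UtyGT f, chosen after seeing the data, 0 carriers and 493 genes were called. DESeq2 called Slc25a3 in place of Slc25a29, quantile normalization called Slc25a11 and Slc25a39, and all 3 other scalings lost Slc25a25. The median log2 fold change of the carriers lay between -0.0018 and 0.07 with 1 library left out. The letters e and f occur in both strains. Deviations of the libraries that share a letter correlated at 0.11 and 0.15, above all pairs of different letters, which ran from -0.15 to 0.08. With fewer than 3 pairs that share a letter, no pairing is established. A replicate block on the letters called 3 carriers (Slc25a25, Slc25a33 and Slc25a39) and 1378 genes, and lost Slc25a29 (adjusted p = 0.0838). In that fit the strain difference rests on the e and f libraries alone, because d and g each occur in only 1 strain. Its calls are therefore no check on all 6 libraries. Some carriers, near no change or, as Slc25a45, imprecise, turned sign without being called. These were Slc25a40 under quantile normalization (-0.041) and the block (-0.028) and Slc25a45 under the block (-0.037). Without both WT e and UtyGT f, they were Slc25a20 (0.056), Slc25a23 (0.022), Slc25a36 (0.043), Slc25a44 (0.093) and Slc25a53 (-0.016). With 1 library left out, the log2 fold change ranged from -0.0018 to 0.10 for Slc25a10, from -0.00067 to 0.106 for Slc25a16, from -0.0088 to 0.213 for Slc25a26, from -0.092 to 0.10 for Slc25a40, from -0.126 to 0.068 for Slc25a44, from -0.097 to 0.802 for Slc25a45, from -0.017 to 0.071 for Slc25a51 and from -0.040 to 0.219 for Slc25a53. Removing the pseudocount left the direction of the 6 paralogue ratios.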
